A study of Homo sapiens with 8 samples.

Results

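The genes examined were the TLE corepressor genes TLE1, TLE2, TLE3, TLE4 and TLE5, and the regions were all those in 2 deposited tables of differential peaks that overlapped the RefSeq span of one of these 5 genes or the 3000 bp on either side. The rule found 24 of the 35154 regions in the RBBP4 table and 1 of the 20496 regions in the P300 table. The genes were chosen by a measured value, the RBBP4 read density at TLE4 in these same libraries, so values at the TLE genes are a description, with no test. The study was made in cells of NCI-H69, a long-established line from human small cell lung cancer, which all groups share. The knockdown groups received small interfering RNA against CSNK2B, which encodes the regulatory subunit of casein kinase 2, and the control groups received non-targeting RNA, both delivered with Lipofectamine RNAiMAX. Chromatin was fixed with 1% formaldehyde for 10 min at 48 h after transfection and precipitated with an antibody against RBBP4 or against P300. Of 8 libraries, 4 were immunoprecipitated, 1 per antibody and arm, and the input libraries were not used here. Since each arm had 1 library, the conditions could not be tested, and intervals cover counting error only.

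TLE proteins are the human relatives of Drosophila Groucho. They do not bind DNA themselves but are brought to it by factors such as TCF/LEF, HES and RUNX proteins, and they repress transcription together with histone deacetylases. TLE1 to TLE4 are full-length members, while TLE5, also called AES, is a short form that lacks the carboxy-terminal WD40 repeats and can oppose the full-length proteins. RBBP4 is a histone-binding subunit of Polycomb, chromatin assembly and deacetylase complexes, and P300 is a histone acetyltransferase. The data show where the signal of these 2 proteins differed between knockdown and control libraries along the genes. They do not show every place where the proteins were found, nor how much TLE RNA or protein the cells held.

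Each table listed only regions whose unadjusted p lay below 0.05 in the authors' deposited table, so the absence of a region at a gene does not show the absence of a change. The reads in all tested regions, inferred from the scaling of the deposited values, came to 1207945 and 833181 in the RBBP4 knockdown and control libraries and to 946392 and 1092789 in the P300 knockdown and control libraries. Each region is named for the arm of its peak call, which matched the arm with more signal in 35151 of 35154 RBBP4 regions, so a count by direction is close to a count by calling arm. Knockdown and control columns were read from column names, which for RBBP4 hold only initials, and a swap would turn every direction. CSNK2B itself had 0 listed regions in either table. Of 8 neuroendocrine marker genes, 2 had a higher RBBP4 region and 1 of these also a lower one, and INSM1, CHGA and SYP were among those with none in either table, so the listed regions do not check the cell type. Fibroblast markers had a higher RBBP4 region in 5 of 7 genes, T cell markers had 0 of 6, and MYCN, amplified in this line, had 1 higher region. In the authors' deposited table the adjusted p of a higher region was under 0.05 at each marker gene that had one, and at 38.3% of protein-coding genes. For P300, 2 of the 8 neuroendocrine genes had a lower region, 1 of the 7 fibroblast genes had a higher and 1 a lower region, and 1 of the 6 T cell genes had a higher one, while 11.5% of protein-coding genes had a higher and 17.7% a lower listed P300 region.

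RBBP4 read density was higher after CSNK2B knockdown in 22 of the 24 regions and lower in 2, and each of the 5 genes had 1 or more higher regions with an adjusted p, in the authors' deposited table, under 0.05. All 22 higher regions were at least 2-fold higher by the ratio of RPKM with a pseudocount of 1, which was true of 64.9% of all listed RBBP4 regions, and the 2 others were at least 2-fold lower, as were 31.2% of all listed regions. By that ratio the median log2 difference was 1.90 over the 22 higher regions and 1.86 over all higher regions in the table. An adjusted p, in the authors' deposited table, under 0.05 was found for 18 of the 24 as higher and for 2 as lower, against 48.3% and 8.94% of all listed regions. The TLE regions held more reads, which p depends on, with a median of 30.5 over both libraries against 19.0 over all listed regions. Among higher regions the medians were 32.5 and 24.0. The part of read depth in this contrast was not tested. A higher region with such an adjusted p lay at 38.3% of 20037 protein-coding genes. Longer genes have more room for a region, and the 5 spans run from 10.1 to 155 kb.

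Over the start sites of TLE4, TLE1, TLE3 and TLE2 lay an RBBP4 region that was higher after knockdown, and the 250 bases before those starts are shown because they are the DNA under or beside it. Promoter windows in the table used run from 250 bases before the start to 50 after it. A higher region over a promoter window was found for 28.3% of the 15843 protein-coding genes with a promoter in that table. All 5 members were in that table. The sequences are RefSeq, GRCh38.p14, written 5′ to 3′ along the gene, at chr9:79571715-79571964 (plus strand, TLE4), chr9:81689548-81689797 (minus, TLE1), chr15:70097918-70098167 (minus, TLE3) and chr19:3047636-3047885 (minus, TLE2). Capitals mark matches on either strand to CCAAT, known as the CCAAT box of many promoters, to GGGCGG, the GC box, to CACGTG, an E-box, to TCAAAG, the core of the TCF/LEF site, or to TGTGGT, the core of the RUNX site, and no match overlapped another motif.
TLE4: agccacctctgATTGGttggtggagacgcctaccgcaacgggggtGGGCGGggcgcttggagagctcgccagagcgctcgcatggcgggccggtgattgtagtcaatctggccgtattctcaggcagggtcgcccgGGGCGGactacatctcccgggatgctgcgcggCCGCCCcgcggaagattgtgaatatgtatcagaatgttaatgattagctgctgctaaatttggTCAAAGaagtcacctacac
TLE1: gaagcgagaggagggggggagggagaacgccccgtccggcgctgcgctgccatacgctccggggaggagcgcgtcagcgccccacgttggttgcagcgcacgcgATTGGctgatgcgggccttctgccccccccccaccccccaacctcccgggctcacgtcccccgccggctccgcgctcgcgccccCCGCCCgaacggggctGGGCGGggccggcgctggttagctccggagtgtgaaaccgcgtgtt
TLE3: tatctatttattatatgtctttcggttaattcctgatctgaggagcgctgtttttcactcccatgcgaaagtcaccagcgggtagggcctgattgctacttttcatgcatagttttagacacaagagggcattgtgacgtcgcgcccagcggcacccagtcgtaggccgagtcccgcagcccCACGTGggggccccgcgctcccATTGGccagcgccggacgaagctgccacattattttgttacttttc
TLE2: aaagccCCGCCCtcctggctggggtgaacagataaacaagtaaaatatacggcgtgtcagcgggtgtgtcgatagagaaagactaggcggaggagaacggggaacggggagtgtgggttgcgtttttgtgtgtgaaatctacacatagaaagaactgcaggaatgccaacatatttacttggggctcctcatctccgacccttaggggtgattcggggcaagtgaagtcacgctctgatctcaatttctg

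The RBBP4 region covered all 250 bases at TLE4, TLE1 and TLE2 and 167 of them at TLE3. A CCAAT box was present once in TLE4, TLE1 and TLE3, and 32.7% of 22199 protein-coding promoter windows of this length hold one. GC boxes numbered 3 in TLE4, 2 in TLE1 and 1 in TLE2, and 53.7% of windows hold at least 1. TLE4 also held a TCAAAG match 19 to 14 bases before its start, a sequence found in 9.62% of windows, and TLE3 held a CACGTG match, found in 7.37%. The RUNX core, found in 9.36% of windows, matched in none of the 4. The windows were 59.2% G+C in TLE4, 75.2% in TLE1, 53.6% in TLE3 and 50.8% in TLE2, against a median of 62.0%. These matches describe letters and were not tested for binding.

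**Figure D1:**
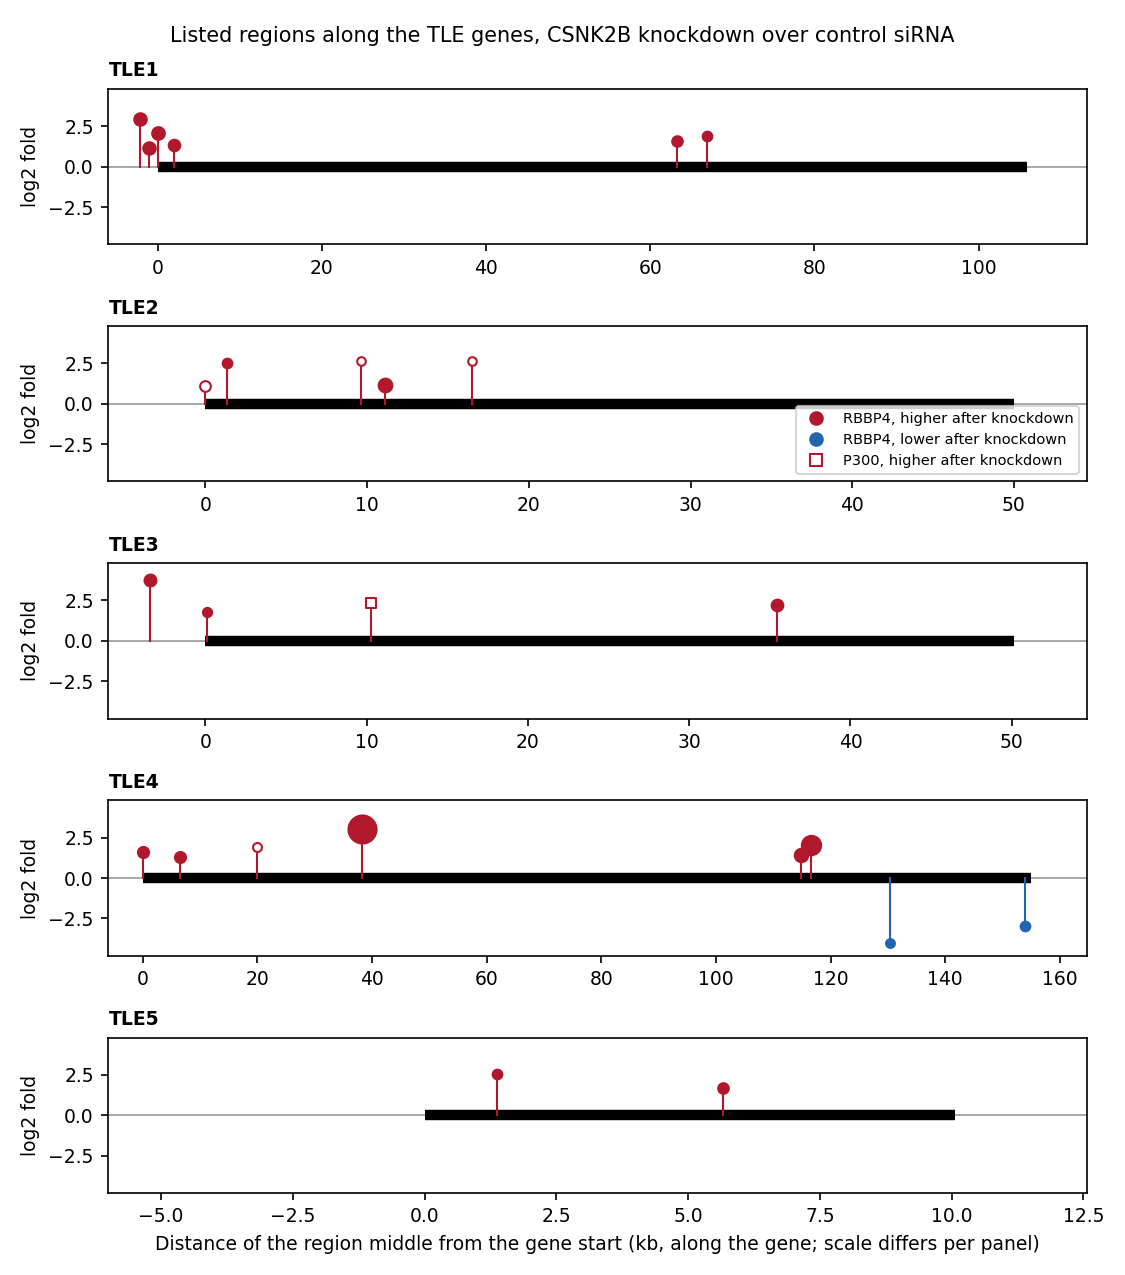
Each point is a listed region, placed by the distance of its middle from the gene start in kb (horizontal) and by the log2 fold of read density, knockdown over control (vertical), with the gene drawn as a black bar, symbol area growing with reads, and open symbols where the adjusted p in the authors' deposited table was 0.05 or more. At TLE4 the 6 higher RBBP4 regions come before the 2 lower ones, and the TLE4 region with 312 reads against 26 is the largest symbol.

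TLE4 had 8 RBBP4 regions, 6 higher and 2 lower, over a gene of 155 kb at chr9:79571965-79726882. Together they held 552 reads (exact Poisson interval 507 to 600) after knockdown and 101 (82.3 to 123) in control cells, a 3.77-fold higher density (exact binomial 95% interval 3.04 to 4.71). This and the other sums cover only listed regions, nearly all of them peaks called in the knockdown arm, so the listing sets their direction and adds to their size, and the interval does not cover that choice. Expressed per length over 6354 bp, the RPKM was 71.9 in the knockdown library and 19.1 in the control library, the highest of the 5 genes in both. A single region carried much of this, with 56.5% of the TLE4 reads after knockdown and 25.7% in control cells.

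That region, at chr9:79608920-79611529, lies inside the gene and its nearer edge is 37.0 kb downstream of the start. It held 312 reads after knockdown against 26 in control cells, an 8.28-fold higher density (5.54 to 12.9). Its RPKM was 130 in knockdown cells and 15.7 in control cells. The reads were whole for a counted length of 1988 bp rather than the listed width of 2610 bp, and with that length the authors' log2 fold change was returned. Among the 35154 listed RBBP4 regions it ranked 4 by p in the authors' deposited table, 69 by reads and 77 by width. Its adjusted p there was 8.10e-25, which compares these 2 libraries and not the conditions. Without it, the other 7 TLE4 regions held 240 reads after knockdown against 75 in control cells, a 2.21-fold higher density (1.70 to 2.90).

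Farther along TLE4, a neighbouring pair of regions was also higher. The region at chr9:79687700-79689287, 116 kb from the start, had 126 reads after knockdown and 21 in control cells, a 4.14-fold higher density (2.59 to 6.92). Beside it, chr9:79686483-79687231 had 47 reads after knockdown and 12 in control cells, or 2.70-fold (1.41 to 5.59). Both intervals lie above 1, which the listing of regions by p from the same reads favours.

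Near its start TLE4 carried smaller regions. The region over the start, chr9:79571711-79572268, had 27 reads in knockdown cells against 6 in control cells, 3.10-fold higher (1.26 to 9.19). The next, chr9:79578168-79578681, had 25 reads after knockdown against 7 in control cells, 2.46-fold (1.04 to 6.75). The region at chr9:79591724-79591981 had 11 reads after knockdown and 2 in control cells, and its interval of 0.828 to 35.2 around a 3.79-fold ratio includes 1. It was the only TLE4 region without an adjusted p, in the authors' deposited table, under 0.05.

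Both lower regions of the 24 lay in the last part of TLE4. The first, chr9:79702177-79702472, began 12.9 kb past the last higher region and held 1 read after knockdown against 11 in control cells, a fold of 0.0627 (0.00146 to 0.431). The second, chr9:79725708-79726110, lay 772 bp before the far end of the gene and held 3 reads after knockdown against 16 in control cells, a fold of 0.129 (0.0241 to 0.452). In the authors' deposited table the adjusted p was 0.0416 for the first and 0.0364 for the second. Among protein-coding genes 3.26% had both a higher and a lower RBBP4 region with an adjusted p below 0.05 in that table. Each lower region held under 20 reads over both libraries.

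**Figure D2:**
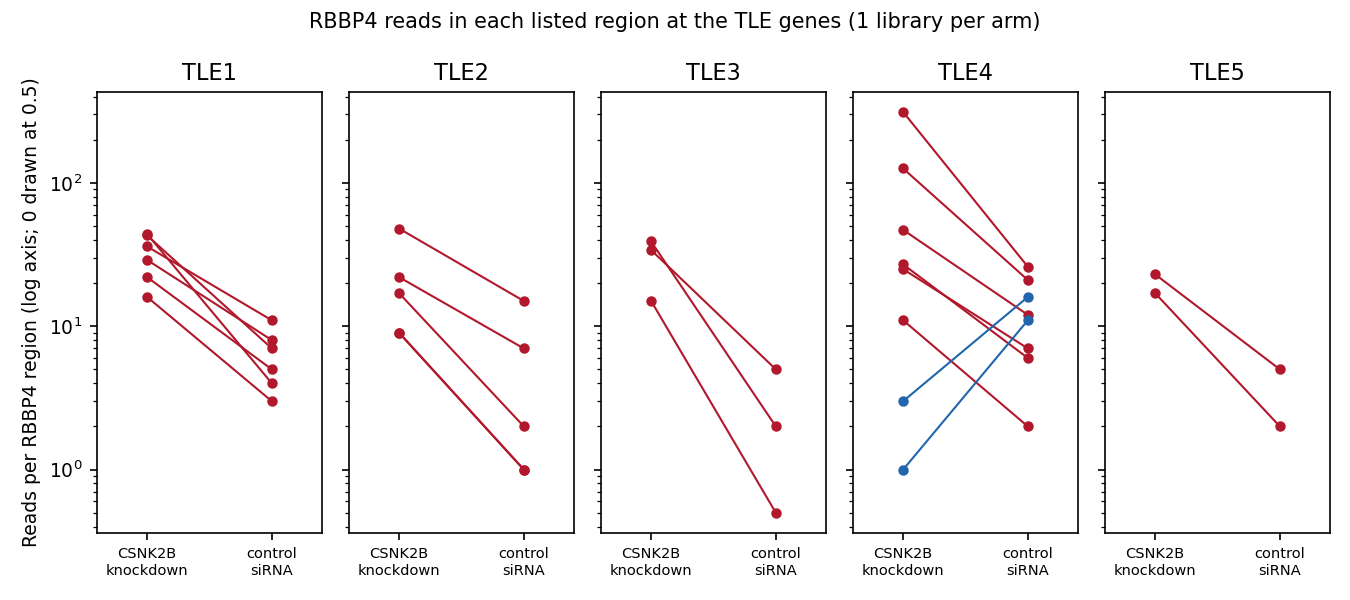
Reads in each listed RBBP4 region (vertical, log axis, 0 drawn at 0.5) in the CSNK2B knockdown library (left) and the control siRNA library (right) of each gene, joined by a line per region, red where higher and blue where lower after knockdown. Only at TLE4 do lines run in both directions.

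TLE1, a full-length corepressor gene of 106 kb at chr9:81583683-81689547 on the minus strand, had 6 RBBP4 regions, all higher after knockdown and all with an adjusted p, in the authors' deposited table, under 0.05. They held 190 reads (164 to 219) after knockdown and 38 (26.9 to 52.2) in control cells, 3.45-fold higher in density (2.42 to 5.02). At least 5 higher regions with such an adjusted p, a count that TLE1 and TLE4 reached, were found at 1.82% of protein-coding genes of any length. Within 3000 bp of the start were 4 of the 6, and these are spread on both sides of it. Together the 4 held 152 reads in knockdown cells and 30 in control cells, or 3.49-fold (2.35 to 5.36).

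The region over the TLE1 start, chr9:81689037-81689959, had 43 reads after knockdown against 7 in control cells, 4.24-fold (1.89 to 11.2). Upstream of it, chr9:81691421-81691910 had 44 reads after knockdown against 4 in control cells, 7.59-fold (2.76 to 29.1), and chr9:81690179-81691001 had 36 against 11, 2.26-fold (1.12 to 4.92). These 3 also overlap TLE1-DT, the divergent transcript annotated next to TLE1, so their reads cannot be given to one of the genes. Just inside TLE1, chr9:81687308-81687916 had 29 reads after knockdown and 8 in control cells, 2.50-fold (1.12 to 6.33). The other pair lay 63.1 and 66.8 kb into the gene and held 22 and 16 reads in knockdown cells, against 5 and 3 in control cells. A further region 3.94 kb before the start, beyond the 3000 bp limit, held 114 reads after knockdown against 11 in control cells, 7.15-fold (3.85 to 14.7), more reads than any TLE1 region inside the limit.

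TLE3, a full-length member of 50.1 kb at chr15:70047790-70097917 on the minus strand, had 3 RBBP4 regions, all higher and all with an adjusted p, in the authors' deposited table, under 0.05. Summed, they held 88 reads (70.6 to 108) after knockdown and 7 (2.81 to 14.4) in control cells, an 8.67-fold higher density (4.04 to 22.2). The control RPKM of 3.97 was the lowest of the 5 genes, beside 34.4 in the knockdown library. Whether this ratio differs from those of the other 4 genes was not tested.

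At the TLE3 start, chr15:70097473-70098084 had 15 reads after knockdown and 0 in control cells. Its ratio was 3.45-fold with a floor of 3 reads in place of 0, and the exact interval starts at 2.47. Upstream, chr15:70100881-70101747 had 39 reads after knockdown against 2 in control cells, 13.5-fold (3.48 to 115). It entered by 37 bp of the 3000 bp flank and is therefore the region nearest to the limit. Inside the gene, chr15:70062161-70062797, 35.1 kb from the start, had 34 reads after knockdown against 5 in control cells, 4.69-fold (1.82 to 15.4).

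TLE2 and TLE5 lie next to each other on chromosome 19, 5275 bp apart and both on the minus strand, and no region was counted for both. TLE2, a full-length member of 49992 bp at chr19:2997644-3047635, had 5 RBBP4 regions, all higher. They held 105 reads (85.9 to 127) after knockdown and 26 (17.0 to 38.1) in control cells, a 2.79-fold higher density (1.80 to 4.46). Of the 5, 2 had an adjusted p under 0.05 in the authors' deposited table. These were chr19:3036047-3037035, 10.6 kb inside the gene, with 48 reads after knockdown against 15 in control cells (2.21-fold, 1.22 to 4.24), and chr19:3046159-3046480, near the start, with 17 against 2 (5.86-fold, 1.39 to 52.3). The region over the TLE2 start, chr19:3047337-3047936, had 22 reads in knockdown cells and 7 in control cells, and the interval of its 2.17-fold ratio, 0.894 to 6.01, includes 1. Each of the remaining 2 regions had 9 reads after knockdown and 1 in control cells.

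TLE5, the short member, spans 10.1 kb at chr19:3052910-3062966 and had 2 RBBP4 regions, both higher and both with an adjusted p, in the authors' deposited table, under 0.05. They held 40 reads (28.6 to 54.5) after knockdown and 7 (2.81 to 14.4) in control cells, a 3.94-fold higher density (1.75 to 10.4). The region at chr19:3061353-3061824 begins 1142 bp inside the gene and had 17 reads after knockdown against 2 in control cells. The other, chr19:3056944-3057683, had 23 reads after knockdown against 5 in control cells, 3.17-fold (1.18 to 10.7). TLE5 was the only member without a region over a promoter window.

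**Figure D3:**
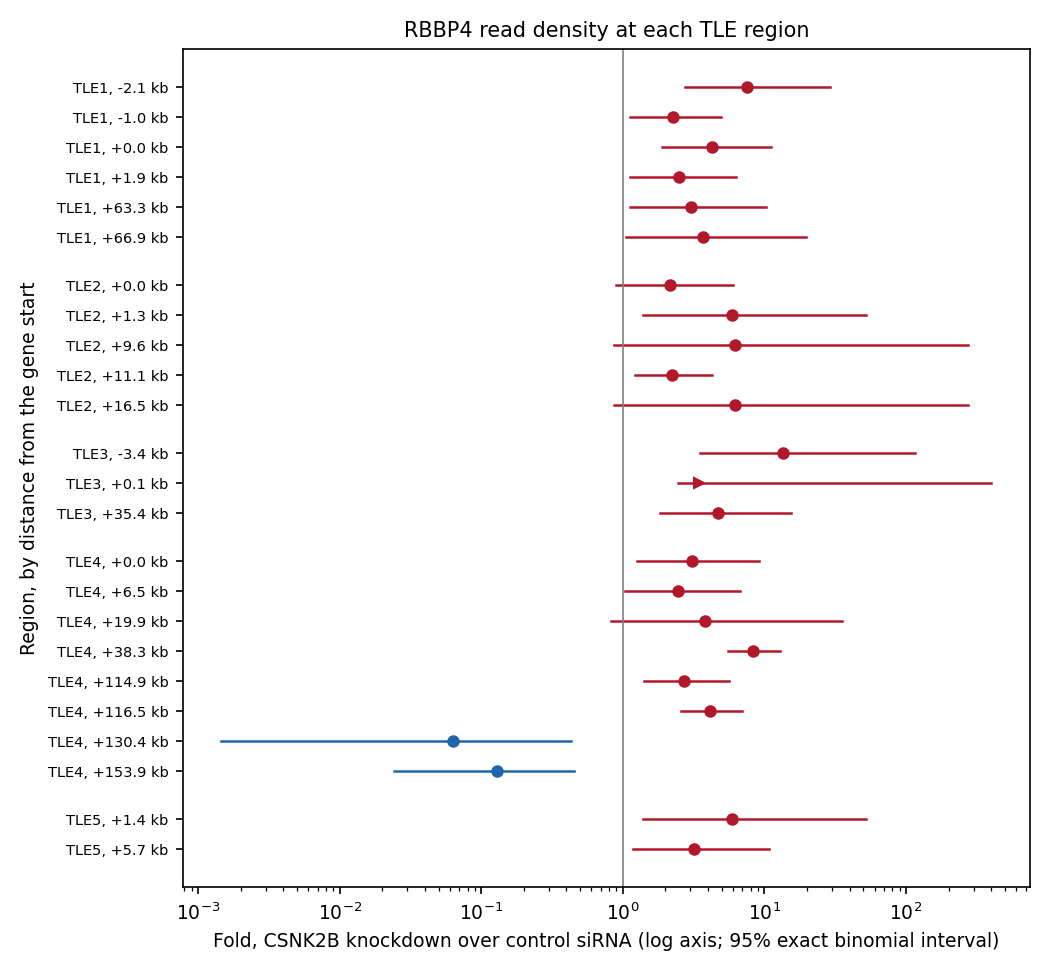
Fold of RBBP4 read density, knockdown over control (horizontal, log axis), for each of the 24 regions, labelled by the distance of its middle from the gene start, with points for the ratio and lines for the 95% exact binomial interval. The arrowhead marks the TLE3 region with 0 control reads, whose interval has no upper limit and is drawn to the edge of the plotted range, and the blue points are the 2 lower regions of TLE4.

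By density over the counted bases, the order in the knockdown library was TLE4 (71.9 RPKM), TLE1 (45.9), TLE2 (35.8), TLE3 (34.4) and TLE5 (27.3), and in the control library TLE4 (19.1), TLE1 (13.3), TLE2 (12.9), TLE5 (6.93) and TLE3 (3.97). The summed folds ran from 2.79 at TLE2 to 8.67 at TLE3. Summed over the 24 regions there were 975 reads after knockdown and 179 in control cells, or 3.76-fold in density (3.20 to 4.43), over 22 regions from knockdown-arm peaks and 2 from control-arm peaks. Without the 312-read TLE4 region this was 2.99-fold (2.50 to 3.59). Of the 22 higher regions, 18 had an interval above 1 and 5 had one above 2. Listing already required an unadjusted p below 0.05 from the same reads, so these counts add no support. The same counts over all higher listed regions were not made.

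Regions within 3000 bp of a start numbered 10, those more than 3000 bp from both ends numbered 13, and 1 lay at a far end. At TLE2 the density near the start was 2.99-fold higher (1.42 to 7.02) and farther away 2.68-fold (1.55 to 4.87). At TLE3 the values were 18.6-fold (4.91 to 158) near the start, from 54 reads after knockdown against 2 in control cells, and 4.69-fold (1.82 to 15.4) farther away. Near the start and farther away the density was 3.49-fold and 3.28-fold higher at TLE1, and 5.86-fold and 3.17-fold at TLE5. TLE4 went the other way, with 3.10-fold (1.26 to 9.19) near the start and 3.81-fold (3.06 to 4.79) farther away. The difference between near and far regions was not tested.

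Peak numbers in the region names ran in genomic order within each arm, with 0 breaks, so numbers missing between listed regions show peaks called in the knockdown library that were not listed under their own name. Between the outermost listed knockdown peaks of each gene there were 26 numbers, of which 22 were listed. The missing 4 were 2 at TLE4, 1 at TLE1 and 1 at TLE2. Leaving out the outermost peaks, which are listed by construction, 12 of 16 were listed (75.0%), against 52.8% of the 45764 or more knockdown peak numbers in the whole table. The 12 include the TLE4 region with 312 reads, and the genes were chosen by read density at TLE4, so this share is not free of that choice. A missing number may be a peak without a listed difference or one joined to another, and these were not told apart.

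**Figure D4:**
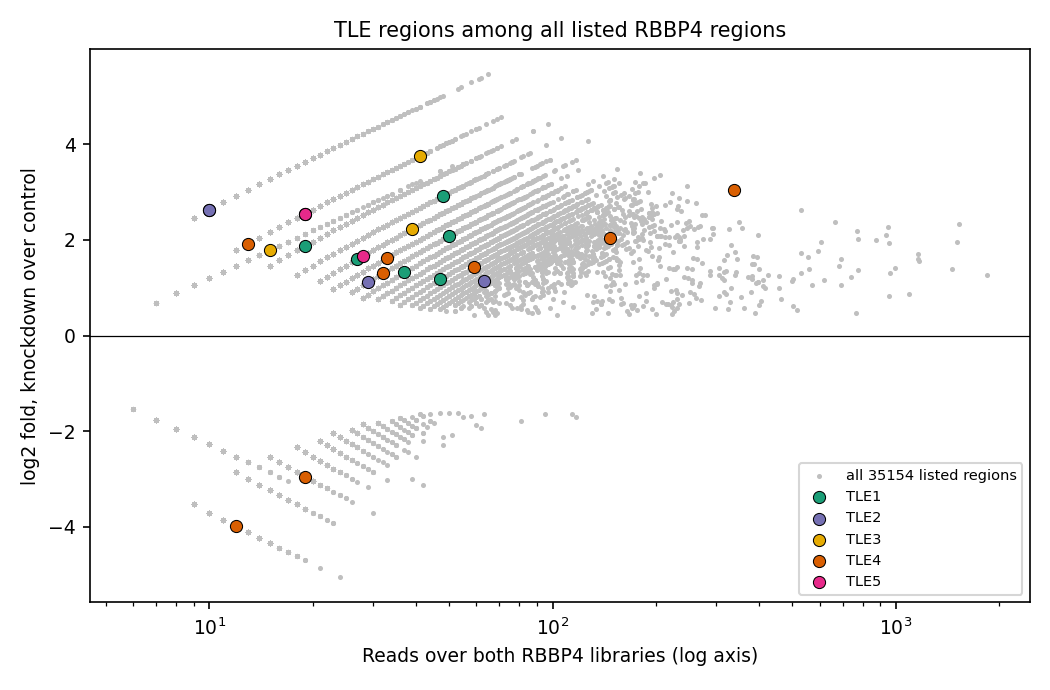
Each grey point is 1 of the 35154 listed RBBP4 regions, by reads over both libraries (horizontal, log axis) and log2 fold of density, knockdown over control (vertical), with a floor of 3 reads in place of 0, and coloured points are the TLE regions. The 2 TLE4 regions with 312 and 126 reads after knockdown stand to the right of the other TLE regions, and the empty band around 0 reflects that only regions with a p below 0.05 were deposited.

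The surroundings of the genes differed. Within 5 Mb of TLE2 and of TLE5, 95.5% of other listed RBBP4 regions were higher, against 68.8% in the whole table, the same direction as at these 2 genes. Around TLE4 the share was 65.7% of 178 regions and around TLE1 64.0% of 186, and around TLE3 it was 78.9% of 180. Within 1 Mb the shares were 68.8% around TLE4, 76.1% around TLE1, 72.2% around TLE3 and 98.7% around TLE2 and around TLE5. The 5 Mb windows of TLE4 and TLE1 overlap, as do those of TLE2 and TLE5, so these are not separate observations. In higher regions within 5 Mb the control library had a median of 13.4 reads per kb around TLE4 and 13.9 around TLE1, which lie 1.86 Mb apart, against 7.46 over all higher regions. In all listed RBBP4 regions within 5 Mb these medians were 18.2 around TLE4 and 18.6 around TLE1, against 10.5 over the whole table. In all listed P300 regions within 5 Mb the control library had a median of 31.7 reads per kb around TLE4 and 32.0 around TLE1, against 32.4 over the whole table. In higher P300 regions it was 5.59 around both genes and over the whole table. The part of the RBBP4 control density of this stretch in the levels at TLE4 and TLE1 was not tested.

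By its reads over both libraries and its ratio, the 312-read TLE4 region was most like regions at UNC5B, a netrin receptor gene, ZNF521, a zinc finger gene, and COLEC12, a scavenger receptor gene. UNC5B had 228 reads after knockdown against 18 in control cells (8.74-fold, 5.40 to 15.0), ZNF521 had 225 against 22 (7.05-fold, 4.55 to 11.5) and COLEC12 had 213 against 20 (7.35-fold, 4.64 to 12.3). Likeness was the distance on the log2 scale, 0.46, 0.51 and 0.57, over 2 libraries.

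P300 data gave 1 region, at TLE3. This region, chr15:70087478-70087783, lies 10.1 kb inside the gene and had 13 reads after knockdown against 3 in control cells, a 5.00-fold higher density (1.37 to 27.4). Its RPKM was 44.9 in the knockdown library and 8.97 in the control library. In the authors' deposited table its unadjusted p was 0.0420 and its adjusted p 0.293, and 0 of the 20496 listed P300 regions had an adjusted p below 0.05, while all 20496 had an unadjusted p below it. P300 density was at least 2-fold higher in 34.7% of listed regions and at least 2-fold lower in 64.3%, and 413 of them had the same 13 and 3 reads, so no gene could be named as most like it. The nearest listed RBBP4 region was 9.69 kb away. A listed higher P300 region lay at 11.5% of protein-coding genes.

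TLE1, TLE2, TLE4 and TLE5 had no listed P300 region. Within 5 Mb only 10 P300 regions were listed around TLE2 and 10 around TLE5, against 104 around TLE1 and 106 around TLE4. Nearest to TLE4 was one 10.6 kb before the start, with 1 read after knockdown against 10 in control cells, and nearest to TLE1 was one 36.7 kb past its far end, with 12 against 1. The closest P300 region to TLE2 was 52.1 kb away. A P300 difference at these 4 genes that missed the listing threshold cannot be seen in this table.

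A list of 42 genes, all matched by symbol, held factors that bring TLE proteins to DNA and the deacetylases they work with. It also held the relatives TLE6 and TLE7 and partners not taken as such factors, among them CTNNB1, BCL9, BCL9L, PYGO1, PYGO2 and XIAP. RBBP4 regions were listed at 25 of the 42. Of the 42, 20 (47.6%) carried a higher one whose adjusted p, in the authors' deposited table, was under 0.05, beside 38.3% of protein-coding genes. A lower region with such a p lay at 2 of the 42, RUNX1 and RUNX2, where the share of protein-coding genes was 5.60%. The median log2 ratio over the 72 regions of the list was 1.97, against 1.49 over all listed regions. The mix of directions enters both medians. Lower regions lay at 5 of the 25 list genes with a region, and 31.2% of all listed regions were at least 2-fold lower. The median over all higher regions in the table was 1.86. RUNX2, a transcription factor of bone formation, had the smallest p, with 92 reads after knockdown against 7 in control cells (9.07-fold, 4.23 to 23.2). HES1, a Notch target repressor, had 140 against 27 (3.58-fold, 2.36 to 5.62), and BCL9L, a beta-catenin cofactor, had 81 against 10 (5.59-fold, 2.89 to 12.1).

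TCF7, a TCF/LEF factor, had 81 reads after knockdown against 13 in control cells (4.30-fold, 2.38 to 8.42). Further repressors of the HES family followed, HES7 with 46 against 5 (6.35-fold, 2.53 to 20.5) and HES4 with 27 against 0. The HES4 ratio was 6.21-fold with a floor of 3 reads in place of 0, and its exact interval starts at 4.71. TLE6, which lies beside TLE2, had 3 higher regions, the one with the smallest p holding 21 reads after knockdown and 0 in control cells. Among the deacetylases, HDAC1 had 16 against 2 (5.52-fold, 1.30 to 49.5) and HDAC3 29 against 9 (2.22-fold, 1.02 to 5.34), the HDAC3 region also lying within 3000 bp of DIAPH1, and HDAC2 had none listed.

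For P300, 9 of the 42 genes had a region, 3 a higher and 7 a lower one, where 11.5% of protein-coding genes had a higher and 17.7% a lower one. RUNX1, with 1 higher and 2 lower regions, was the gene in both. None of the 9 had an adjusted p, in the authors' deposited table, under 0.05, where the lowest over all regions was 0.260. PRDM1, a transcriptional repressor that drives plasma cell differentiation, had 2 reads after knockdown against 12 in control cells. TCF7L2 had 1 against 9, the RUNX1 region with the smallest p 0 against 8 and CTNNB1, the gene of beta-catenin, 0 against 7. TLE7 had 12 reads after knockdown against 1 in control cells. The median log2 ratio over the 12 regions was -2.09, against -1.70 over all listed P300 regions.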

How the data were processed

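Each antibody had 1 immunoprecipitated library per arm. The authors deposited 1 table per antibody, with RPKM values per region for the knockdown and control libraries. Per the file headers, the log2 fold change and both p-values come from the authors. The submitters' processing notes name, without roles, the build GRCh38 and the tools DiffBind 3.4.11, MACS2 2.2.7.1, ChIPseeker 1.28.3, Bowtie2 2.4.5, FastQC and Trim Galore 0.6.7.

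Reads were recovered as RPKM times width, whole to within 0.01 in 98.3% of RBBP4 and 99.4% of P300 regions. Elsewhere a shorter counted length was sought that gives whole reads and the authors' log2 value. Folds are scaled to the total behind the RPKM, assumed without a check to be all reads in tested regions. The authors' log2 fold change differs in scaling by a fitted shift of 0.58 for RBBP4 and of -0.44 for P300. It was taken, without a check, to be scaled to whole libraries. A floor of 3 reads replaced 0. Intervals are 95% exact binomial (folds) or exact Poisson (reads), computed with Python 3.11.15 and scipy 1.17.1. PCR duplicates are not independent, so intervals cover counting error only. Read recovery was tested on simulated data.

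Gene spans and promoters came from RefSeq, GRCh38.p14. The rule for named genes took all members and their regions, up to 6 list genes per antibody by the authors' p, and the 3 genes nearest to the deepest member region in reads and ratio. Some list genes that the rule takes are not reported here. TLE6 and the deacetylases were named after their RBBP4 values were seen. Members and lists were chosen with earlier results of these data known. Alternatives were another pseudocount, read filter, scaling, flank, overlap and p threshold.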

Additional observations from a re-analysis of the deposited data

How the results depend on the processing

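The count of 22 RBBP4 regions at least 2-fold higher kept within 1.5 times under all 7 alternatives. With at least 20 reads over both libraries, 0 of the 2 lower RBBP4 regions and 0 of the 1 higher P300 region were left, and requiring an adjusted p, in the authors' deposited table, under 0.05 left 0 P300 regions. At 0.01 there, 10 RBBP4 regions passed in place of 20. Scaled as the authors' log2 fold change, taken to be by whole libraries, the summed RBBP4 fold was 5.62 in place of 3.76. That lies outside the counting interval of the 3.76-fold value, 3.20 to 4.43. Without the TLE4 region with the most reads, an alternative chosen after the data were seen, the summed fold was 2.99, also outside it. For the 25 regions taken singly, both alternatives stayed inside the counting interval of the fold in 25 of 25, and none turned the direction. No paired analysis was possible because each arm had 1 library per antibody, and for the same reason no library could be left out. The P300 region held 16 reads and the median TLE region for RBBP4 30.5, so ratios of small regions are loose.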
